A study of Homo sapiens with 8 samples.

Results

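ELF3, EHF and ELF1 are transcription factors of the ETS family, and KLF3, KLF4, KLF5 and KLF6 are transcription factors of the Krüppel-like (KLF) family. These 7 genes were chosen by name and were taken from a table of 30755 gene symbols, in which 7 of the 7 are present. The table covers 4 RNA-seq libraries of ESO26, an established line of oesophageal adenocarcinoma cells. In the 2 libraries titled siHNF4AB1 and siHNF4AB2, here siHNF4A 1 and siHNF4A 2, the cells had a knockdown of HNF4A by small interfering RNA (siRNA). HNF4A is a nuclear receptor of endodermal tissues. What the letter B in these titles stands for is not stated. The 2 control libraries came from ESO26 cells grown in the same medium. The labels name neither the siRNA sequence nor the treatment of the control cells, and give no time after transfection. They do not say whether the 2 libraries of a group came from separate cultures. The p-values therefore rest on the spread between these libraries, pooled in part over genes of like level, and that spread may be technical. The series' text speaks of more replicates than the 2 per group used here. The series also holds 1 ChIP-seq library for HNF4A, 1 for Flag-tagged GATA4 and 2 chromosome conformation capture libraries. Their peaks were not assigned to the 7 genes, because the submitters' processing notes name hg19 and no annotation of that build was used here.

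ETS factors bind DNA through a winged helix-turn-helix domain that reads a GGAA core. ELF3 and EHF belong to an epithelium-specific branch of that family, and ELF1 is broadly expressed. KLF factors bind GC-rich and CACCC sequences through zinc fingers at the end of the protein. In the gut, KLF5 is known from dividing crypt cells and KLF4 from differentiated cells, including goblet cells. ELF3, EHF and KLF5 have been described elsewhere as members of a self-regulating circuit of master factors in oesophageal adenocarcinoma. The comparison made here asks how the RNA of these factors differed after HNF4A had been lowered.

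Normalized counts, the authors' values after a normalization that the labels do not describe, summed to between 17912507 and 18613685 per library. The absolute depth is unknown. Genes listed at 0 numbered 5479 and 5640 in control 1 and 2, against 4260 and 4362 in siHNF4A 1 and 2. Low values were therefore compared across groups with unlike numbers of genes at 0. HNF4A itself had 4129 and 3937 normalized counts in the control libraries and 1140 and 932 after knockdown, so that 25.7% of the mean control level remained. Of the columnar epithelial markers checked, 9 of 9 had a mean of at least 10 normalized counts and 5 were called at an adjusted p under 0.05 in limma, as were 14.1% of all genes tested: EPCAM, KRT8 and KRT18 fell by 0.29, 0.43 and 0.51 on the log2 scale, and KRT19 and MUC13 rose by 0.22 and 0.44. The markers of other cell types had low sums. For 5 squamous genes they were 54.7 and 33.6 normalized counts in the control libraries and 44.0 and 71.0 in the knockdown libraries. The sums were 210 and 132 against 238 and 235 for 4 fibroblast genes, and 24.6 and 15.2 against 64.0 and 47.2 for 2 endothelial genes. For 3 leukocyte genes they were 133 and 118 against 77.1 and 95.7. Of these 14 genes 10 were tested and 2 called, again beside 14.1% of all genes tested. They were the endothelial VWF, with means of 7.62 and 42.0 in control and knockdown, and the squamous KRT14, with 1.46 and 19.0. Both reached the minimum mean of the test through their knockdown values alone. The squamous KRT13 was listed at 0 in both knockdown libraries, DSG3 in control 2 and siHNF4A 2, and the leukocyte PTPRC in control 1, while TP63, COL3A1, PECAM1 and CD3E were not analysed here. The part of any such cells in the results was not tested.

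EHF and KLF4 rose after HNF4A knockdown, EHF by 27.3% and KLF4 by 25.7% of the control mean. ELF3, ELF1, KLF3, KLF5 and KLF6 did not pass the test, with overlapping groups in each case. With 2 of 7 genes past an adjusted p of 0.05, the share is set beside 14.1% of the 15577 genes tested. Over all genes tested 6.02% were called higher and 8.11% lower, and 57.0% had groups that did not overlap, as 2 of the 7 genes did (26.9% with the knockdown higher and 30.1% with it lower). The median log2 fold change of the 7 genes was 0.072, against -0.0073 over all genes tested, and 5 of the 7 values were above 0. Fold changes are on the scale log2(normalized count + 1), siHNF4A minus control, and were tested with limma. A gene was tested if its mean over the 4 libraries reached 10 normalized counts, as it did for 7 of the 7 genes.

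**Figure D1:**
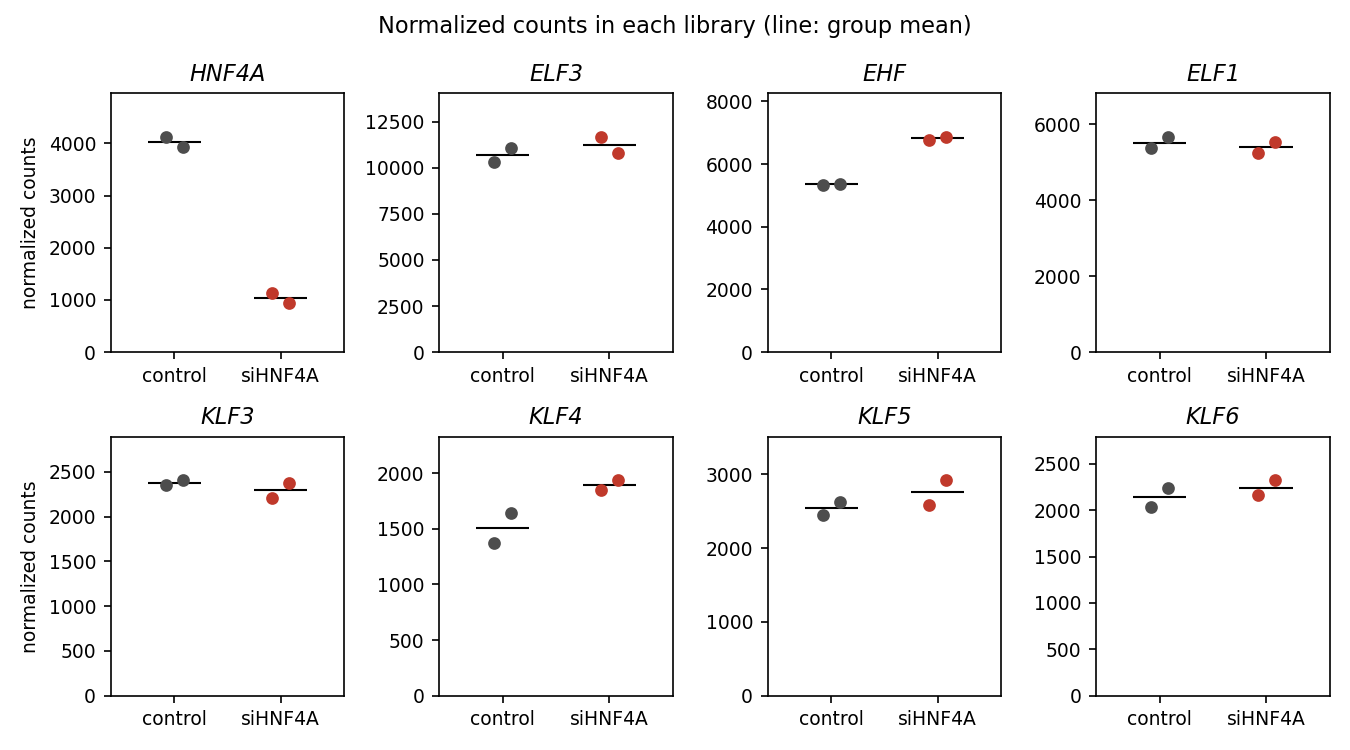
Normalized counts (vertical axis, from 0) of HNF4A and the 7 genes in the 2 control libraries (grey) and the 2 siHNF4A libraries (red), with a line at each group mean. EHF and KLF4 have both siHNF4A libraries above both control libraries, whereas the groups of the other 5 genes overlap.

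EHF, which encodes an epithelial ETS factor, had 5347 and 5376 normalized counts in the control libraries and 6779 and 6874 in the knockdown libraries. The libraries of a group lay close together and the groups were separate. On the log2 scale this is a rise of 0.35 (standard error 0.054, 95% interval 0.23 to 0.47), with an adjusted p of 0.0032 in limma. The gap between the control libraries was 0.0079 on the log2 scale, and 94.4% of the 4477 genes with a mean of 1000 to 20000 normalized counts had a wider one. Between the knockdown libraries it was 0.020, with 84.6% of these genes wider. In size the change was moderate, since 28.0% of the genes tested had a larger absolute log2 fold change, and 734 of the 938 genes called higher rose further. The call held in each of the 4 fits that left out a library, with log2 fold changes from 0.34 to 0.36. It was lost in the fit without a trend between variance and expression, in which the adjusted p of EHF was 0.142 in limma and limma called 0 genes of the table, with 3524 at an unadjusted p under 0.05. In bulk RNA, a change in the number of cells that hold a transcript and a change in its amount per cell cannot be told apart.

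ELF3, the closest relative of EHF among the 7 genes, had 10333 and 11042 normalized counts in the control libraries and 11683 and 10790 in the knockdown libraries. The second knockdown library lay between the control libraries. The log2 fold change was 0.072 (standard error 0.060, adjusted p of 0.476 in limma). Its 95% interval ran from -0.062 to 0.21, that is a difference of -4.19% to 15.3% from the control level. ELF1 had 5362 and 5674 normalized counts in the control libraries and 5245 and 5535 in the knockdown libraries, so that its groups overlapped as well. Its log2 fold change was -0.034 (95% interval -0.17 to 0.10, adjusted p of 0.761 in limma) and turned to 0.016 after quantile normalization, 0.0071 without control 2 and 0.0050 without siHNF4A 1. The ELF1 gene overlaps the pseudogene RGS17P1, which had between 1.84 and 4.40 normalized counts per library. ELF1 is also an older name of ELOF1, an elongation factor gene with its own row in the table and between 286 and 309 normalized counts per library.

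The ratio of EHF to ELF3 within a library does not depend on how that library was scaled. It was -0.95 and -1.04 on the log2 scale in the control libraries and -0.79 and -0.65 in the knockdown libraries. Both knockdown values lay above both control values, and the means differed by 0.28 (-0.99 ± 0.062 against -0.72 ± 0.095, SD, n = 2 each). The exact two-sided permutation p was 0.333, the smallest that 2 libraries against 2 allow. The ratio of EHF to ELF1, a pair chosen after the values were seen, was -0.0040 and -0.078 in the control libraries and 0.37 and 0.31 in the knockdown libraries. These ratios compare the same genes across libraries and say nothing of which gene has more transcripts, as the values are not per length.

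The promoter sequences of the 2 genes that rose, EHF and KLF4, and of ELF3 are printed here to show what lies before their annotated starts. They are the 250 bases before each start in RefSeq on GRCh38.p14, a build other than that of the peak lists. A table of such sequences gave 10 starts for 6 of the 7 genes. Capitals mark matches on either strand to CAAAGTC, part of the HNF4 element, AGATAA of GATA factors, AGGAAG of ETS factors, CACCC and GGGCGG of KLF and SP factors, and TATAAA, the TATA box.
EHF first start, chr11:34624007-34624256, plus strand: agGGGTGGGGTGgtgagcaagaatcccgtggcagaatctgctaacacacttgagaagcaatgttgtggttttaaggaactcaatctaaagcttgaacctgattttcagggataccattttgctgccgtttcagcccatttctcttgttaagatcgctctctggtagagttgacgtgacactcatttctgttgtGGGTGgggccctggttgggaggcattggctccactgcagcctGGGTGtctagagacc
EHF second start, chr11:34632316-34632565, plus strand: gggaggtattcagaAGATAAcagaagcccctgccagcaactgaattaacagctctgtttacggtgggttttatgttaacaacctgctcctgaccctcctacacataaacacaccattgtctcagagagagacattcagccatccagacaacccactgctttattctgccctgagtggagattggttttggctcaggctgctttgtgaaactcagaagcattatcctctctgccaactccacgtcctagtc
ELF3, chr1:202010337-202010586, plus strand: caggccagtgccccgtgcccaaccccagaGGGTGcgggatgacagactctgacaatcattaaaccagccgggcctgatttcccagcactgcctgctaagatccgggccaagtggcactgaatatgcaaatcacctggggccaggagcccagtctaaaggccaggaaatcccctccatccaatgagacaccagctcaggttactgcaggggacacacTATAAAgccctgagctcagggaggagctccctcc
KLF4, chr9:107489770-107490019, minus strand: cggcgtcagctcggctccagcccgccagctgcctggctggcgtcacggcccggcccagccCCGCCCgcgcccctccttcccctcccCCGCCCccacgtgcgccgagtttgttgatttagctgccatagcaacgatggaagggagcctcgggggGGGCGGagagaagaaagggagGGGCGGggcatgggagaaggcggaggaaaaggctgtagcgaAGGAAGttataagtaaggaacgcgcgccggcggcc

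The window before the first EHF start held 4 CACCC matches, of which the pair at 248 and 243 bases before the start lie side by side. CACCC is a short motif, found in 54.7% of 35114 windows of the same length before RefSeq starts. The window before the second EHF start, which lies within the gene, held 1 AGATAA match at 236 bases before that start, and 9.17% of all windows hold this motif. The ELF3 window held TATAAA at 34 bases before the start (10.7% of all windows) and 1 CACCC match. The KLF4 window held 4 GGGCGG matches at 190, 164, 97 and 76 bases before the start (42.6% of all windows hold at least 1) and AGGAAG at 35 bases (28.7%). Its GC content was 69.2%, against 50% and 47.6% for the EHF windows, 58.4% for ELF3 and a median of 58% over all windows. CAAAGTC, present in 2.91% of all windows, had 0 matches in these windows, which says only that these letters are not in them. A match is a string of letters and no measured binding.

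KLF4, a factor known for its role in differentiated gut epithelium, had 1370 and 1645 normalized counts in the control libraries and 1851 and 1938 in the knockdown libraries. The groups did not overlap, but the control libraries lay further apart from each other than control 2 lay from siHNF4A 1. The log2 fold change was 0.33 (standard error 0.094, 95% interval 0.13 to 0.54), with an adjusted p of 0.0410 in limma. The gap between the control libraries was 0.26 on the log2 scale, and 3.37% of the 4477 genes of like level had a wider one. KLF4 passed the test in 1 of the 4 fits that left out a library, the fit without control 2 (log2 fold change 0.47, adjusted p of 0.0030 in limma). Without control 1 the log2 fold change was 0.20 (adjusted p = 0.163), without siHNF4A 1 it was 0.37 (adjusted p = 0.117) and without siHNF4A 2 it was 0.30 (adjusted p = 0.189). The call was also lost when genes with low values were kept (adjusted p = 0.171) and without the variance trend (adjusted p = 0.241).

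**Figure D2:**
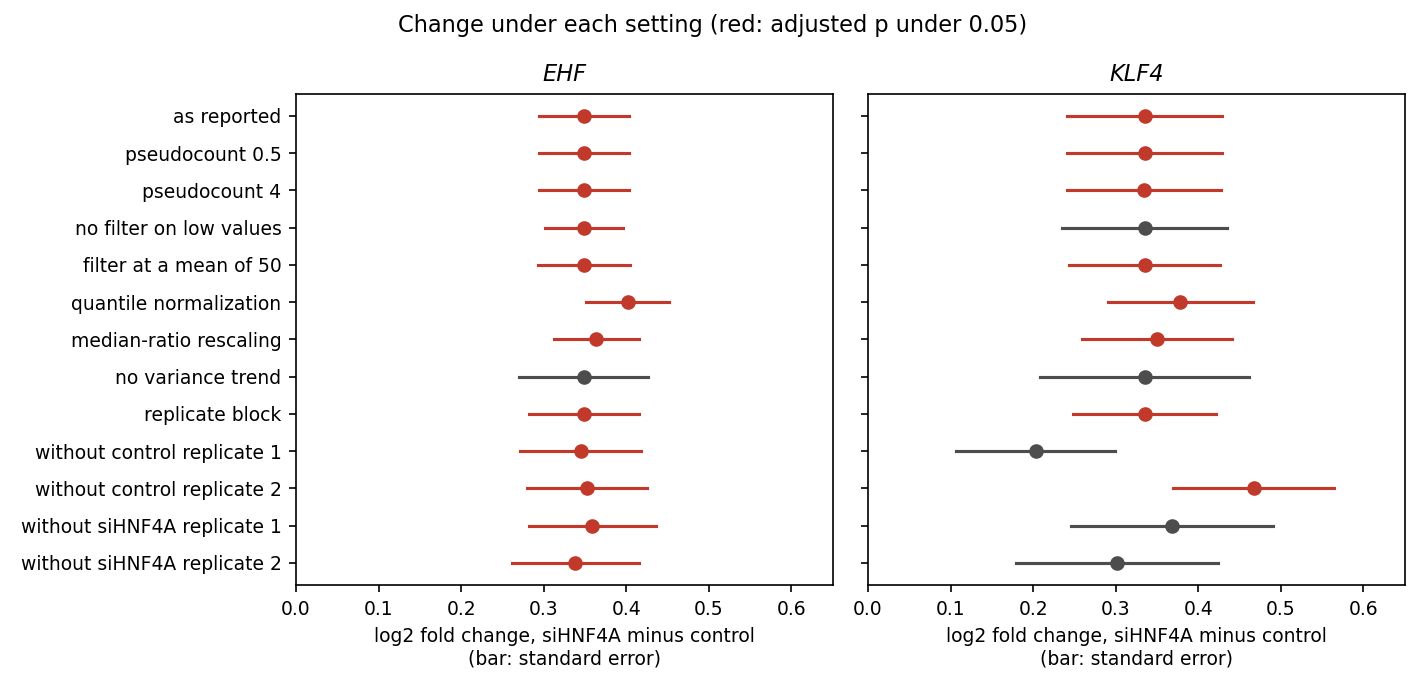
Log2 fold change (horizontal axis, siHNF4A minus control) of EHF and KLF4 as reported and under each other setting, with the standard error as a bar and red where the adjusted p is under 0.05. EHF stays between 0.34 and 0.40 and is grey in 1 setting, while KLF4 ranges from 0.20 to 0.47 and is grey in 5.

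KLF5, the KLF factor of proliferating crypt cells, had 2454 and 2628 normalized counts in the control libraries and 2586 and 2920 in the knockdown libraries. The first knockdown library lay between the control libraries. Its log2 fold change was 0.11 (95% interval -0.061 to 0.29, adjusted p of 0.381 in limma), which allows for a rise of up to 22.1%. KLF6, an early-response factor first described as a core promoter element binding protein, had 2040 and 2238 normalized counts in the control libraries and 2162 and 2326 in the knockdown libraries. The groups overlapped, and the log2 fold change was 0.069 (95% interval -0.10 to 0.24, adjusted p of 0.601 in limma). KLF3, a repressor that recruits the CtBP corepressors, had 2351 and 2407 normalized counts in the control libraries and 2209 and 2380 in the knockdown libraries. The second knockdown library again lay between the controls. Its log2 fold change was -0.053 (95% interval -0.21 to 0.10, adjusted p of 0.666 in limma) and was 0.00048 without siHNF4A 1. The KLF3 gene overlaps the antisense gene KLF3-AS1 in RefSeq, whose reads cannot be told apart from those of KLF3 if the counting did not use the strand, which the labels do not state.

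Within a library, the log2 ratio of KLF4 to KLF5 was -0.84 and -0.68 in the control libraries and -0.48 and -0.59 in the knockdown libraries. Both knockdown values were higher, and the means differed by 0.22 with an exact permutation p of 0.333, again the smallest possible. The ratio of KLF4 to KLF3 moved from -0.78 and -0.55 to -0.25 and -0.30, a difference of 0.39. The ratio of KLF6 to KLF5 was -0.27 and -0.23 in the control libraries and -0.26 and -0.33 in the knockdown libraries, and these groups overlapped. The 3 KLF pairs were chosen after the values were seen.

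**Figure D3:**
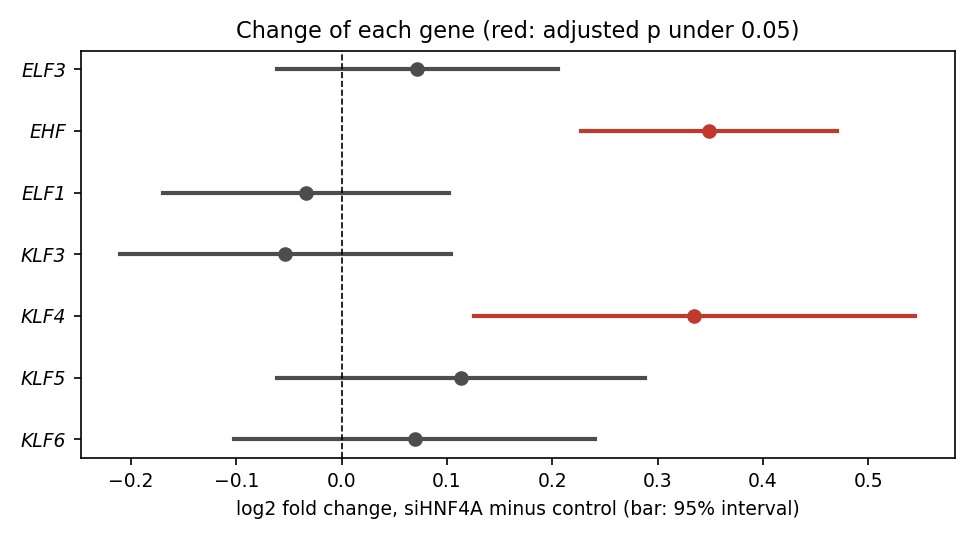
Log2 fold change (horizontal axis, siHNF4A minus control) of the 7 genes with the 95% interval of the limma fit, in red where the adjusted p is under 0.05. The intervals of EHF (0.23 to 0.47) and KLF4 (0.13 to 0.54) lie above 0, and the other 5 intervals include 0.

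The other members of the ETS family were then described. Of 28 ETS genes 21 were tested, and 6 of them passed the test, EHF included. Over all genes tested this share was 14.1%. The median log2 fold change of the 21 genes was -0.034, with 10 values above 0 and 11 below. ELK1 and ELK4, which are partners of serum response factor, changed in opposite directions. ELK1 fell from 1265 and 1301 to 675 and 620 normalized counts (log2 fold change -0.99, standard error 0.089, adjusted p of 0.00021 in limma). ELK4 rose from 1111 and 1271 to 1613 and 1578 (log2 fold change 0.42, adjusted p of 0.0111 in limma). ELF4, a relative of ELF1, fell from 1658 and 1712 to 1311 and 1332 (log2 fold change -0.35, adjusted p of 0.0128 in limma). ETV4, of the PEA3 group, fell from 69.1 and 67.5 to 32.1 and 36.1 (log2 fold change -0.98, adjusted p of 0.0348 in limma). The ETV4 call was lost in each fit that left out a library and when genes with low values were kept. ETS2 rose from 9377 and 9447 to 10939 and 10785 (log2 fold change 0.21, adjusted p of 0.0237 in limma). ELF5, an epithelial factor of the same branch as ELF3 and EHF, had between 4.29 and 6.42 normalized counts per library and was not tested. FLI1 was not tested either, and ERG, FEV, ETV3L, SPI1 and SPIC were not analysed here. Without siHNF4A 1 or without siHNF4A 2 the count of called ETS genes was 2 rather than 6, and it was also 2 when genes with low values were kept. EHF and ELK1 were called in each of the 4 fits that left out a library.

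Among the KLF and SP genes, which share the same type of zinc fingers, 21 of 27 were tested and 5 passed the test, KLF4 among them, beside 14.1% over all genes tested. The median log2 fold change was 0.041, with 11 values above 0 and 10 below. KLF11, a repressor induced by transforming growth factor beta, fell from 457 and 447 to 220 and 299 normalized counts (log2 fold change -0.82, standard error 0.15, adjusted p of 0.0077 in limma). SP1, a broadly expressed activator at GC boxes, fell from 3101 and 2918 to 2331 and 2393 (log2 fold change -0.35, adjusted p of 0.0083 in limma). SP6 fell from 1575 and 1722 to 1285 and 1230 (log2 fold change -0.39, adjusted p of 0.0117 in limma). SP4 rose from 327 and 366 to 593 and 508 (log2 fold change 0.66, adjusted p of 0.0074 in limma). SP3, a relative of SP1, had 4301 and 4260 normalized counts in the control libraries and 3863 and 3753 in the knockdown libraries and was not called (adjusted p of 0.0894 in limma). KLF1, KLF14 and KLF17 were too low to be tested, and KLF18, SP7 and SP9 were not analysed here. The count of called genes was 2 without siHNF4A 1, 3 without siHNF4A 2 and 0 with genes of low values kept, in which case 9 had an unadjusted p under 0.05 in limma.

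**Figure D4:**
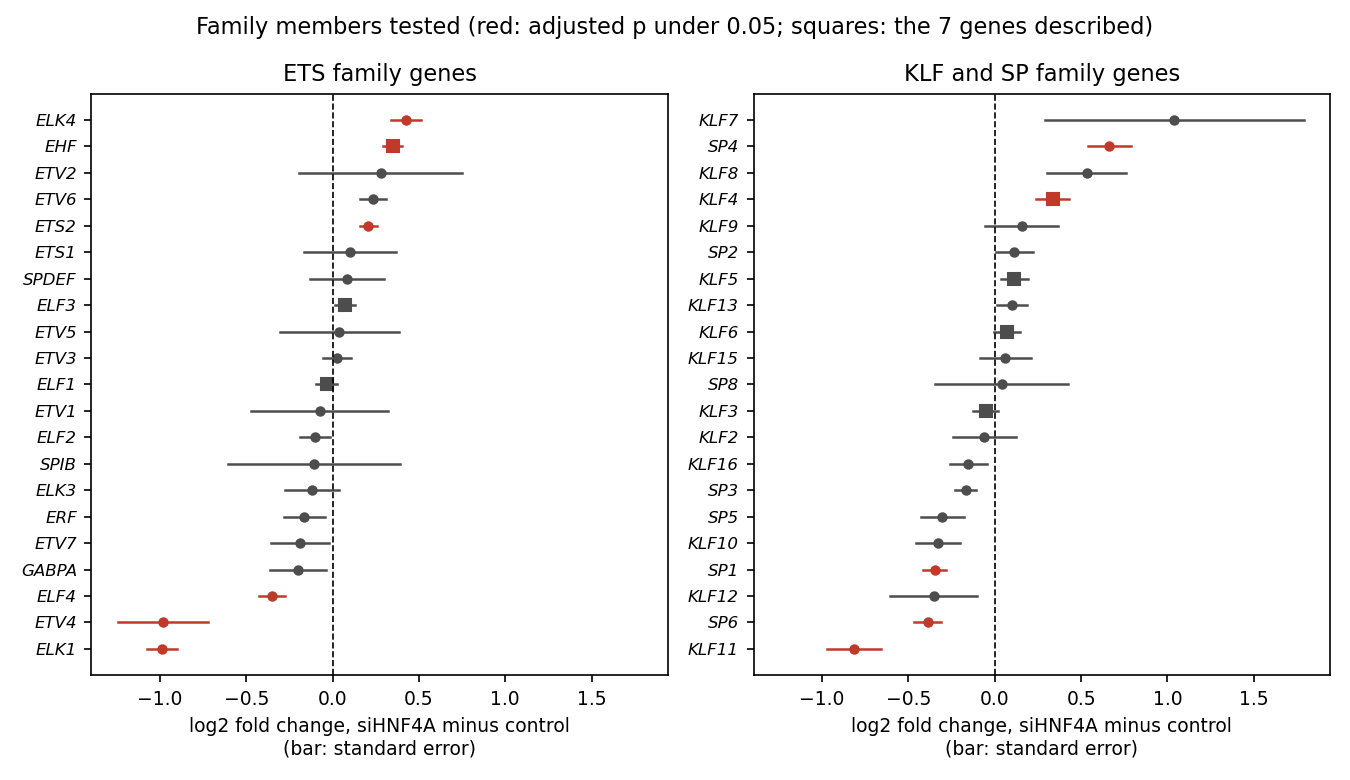
Log2 fold change (horizontal axis, siHNF4A minus control) with its standard error for the 21 ETS genes and the 21 KLF and SP genes tested, in red where the adjusted p is under 0.05 and with squares for the 7 genes described. The red points lie on both sides of 0, from ELK1 at -0.99 to ELK4 at 0.42 in the ETS family and from KLF11 at -0.82 to SP4 at 0.66 among the KLF and SP genes.

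Genes regarded in other cells as targets of ELF3, EHF, KLF4, KLF5 or KLF6 were looked up in the same fit. Of 22 such genes 18 were tested and 8 passed the test, 3 of them higher and 5 lower, beside 14.1% over all genes tested. The median log2 fold change was -0.017, with 9 values above 0 and 9 below. CCND1, which encodes the G1 cyclin D1 and is regarded as a KLF5 target, fell from 410 and 408 to 175 and 99.1 normalized counts (log2 fold change -1.63, standard error 0.23, adjusted p of 0.0019 in limma). PDGFA, a growth factor gene regarded as activated by KLF5, fell from 540 and 508 to 356 and 349 (log2 fold change -0.57, adjusted p of 0.0085 in limma). CDKN1A, the cell-cycle inhibitor p21 and a gene regarded as activated by KLF4 and KLF6, fell from 816 and 997 to 581 and 551 (log2 fold change -0.67, adjusted p of 0.0046 in limma). ODC1, an enzyme of polyamine synthesis, fell by 0.31 on the log2 scale. ALPI, the intestinal alkaline phosphatase, had 23.4 and 15.1 normalized counts in the control libraries and 2.62 and 1.97 in the knockdown libraries (adjusted p of 0.0167 in limma). ALPI passed the minimum mean through its control values alone, and it was called in none of the 4 fits that left out 1 library. Without siHNF4A 1 or siHNF4A 2 it lost its call, and without control 1 or control 2 it fell under the minimum mean and was not tested. The genes that rose were PLAU, the urokinase protease (log2 fold change 0.66), BIRC5, the apoptosis inhibitor survivin (0.36), and KRT19, a keratin of simple epithelia (0.22). TGFBR2, a receptor gene regarded as an ELF3 target, had a log2 fold change of 0.083 and was not called (adjusted p of 0.542 in limma). The count was 5 without siHNF4A 1, 3 without siHNF4A 2 and 5 with genes of low values kept.

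Cofactors and turnover genes of ETS and KLF proteins formed the last list, with 20 of 20 genes tested and 3 called. This share of 15.0% lies near the 14.1% over all genes tested. HDAC1, a histone deacetylase of corepressor complexes, rose from 4189 and 4117 to 5624 and 5163 normalized counts (log2 fold change 0.38, adjusted p of 0.0046 in limma). GSK3B, a kinase that marks proteins for degradation, rose from 2224 and 2257 to 2616 and 2884 (log2 fold change 0.29, adjusted p of 0.0245 in limma). BTRC, a substrate receptor of a ubiquitin ligase, fell from 417 and 447 to 267 and 314 (log2 fold change -0.58, adjusted p of 0.0169 in limma). WWP1 and FBXW7, ubiquitin ligase genes that act on KLF5, had log2 fold changes of -0.16 and -0.28 and were not called (adjusted p of 0.157 and 0.143 in limma). CTBP1 and CTBP2, the corepressors of KLF3, had -0.15 and -0.20 and were not called either. The count of 3 was 1 without siHNF4A 1 and 1 with genes of low values kept. Of the 20 genes called in these lists other than EHF and KLF4, 4 were called in each of the 4 fits that left out a library, namely ELK1, KLF11, CCND1 and CDKN1A.

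The protein-coding neighbours of the 7 genes, 3 on each side in the RefSeq order, were examined after the results were seen, to ask whether genes next to EHF and KLF4 moved with them. Of 42 neighbours 32 were tested and 9 called, 5 of them higher and 4 lower, beside 14.1% over all genes tested. Directly beside EHF lie ELF5, which was not tested, and APIP, which had a log2 fold change of 0.016 and was not called. PDHX, the next gene after APIP, had -0.033 and was not called. On the other side of ELF5, CAT, which encodes catalase, rose from 1269 and 1326 to 1555 and 1581 normalized counts (log2 fold change 0.27, adjusted p of 0.0391 in limma), a call that each of the 4 fits without a library lost. CD44, a cell-surface receptor gene beyond PDHX, rose from 1077 and 882 to 1275 and 1488 (log2 fold change 0.50, adjusted p of 0.0176 in limma), a call lost without siHNF4A 2. The calls of CAT and CD44 were also lost when genes with low values were kept and without the variance trend. Beside KLF4, TMEM38B, ZNF462 and RAD23B had log2 fold changes between -0.096 and 0.22 and were not called. KLF12, which is the next gene after KLF5 on chromosome 13 and of the same family, had 68.1 and 101 normalized counts in the control libraries and 66.5 and 62.7 in the knockdown libraries and was not called (adjusted p of 0.399 in limma). PIBF1, directly on the other side of KLF5, was called lower (log2 fold change -0.45, adjusted p of 0.0133 in limma). The remaining called neighbours were TIMM17A (-0.35) and RNPEP (-0.37) near ELF3, and WBP4 (0.39) and KBTBD6 (-0.44) near ELF1. Near KLF6 they were AKR1C1 (0.43) and AKR1C2 (0.71).

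The genes whose values over the 4 libraries ran most nearly parallel to each factor were found by the Euclidean distance between centred log2 values, among 10911 other genes whose mean reached 100 normalized counts. For EHF they were ARHGEF38, with a distance of 0.018, and BAHD1 with 0.022. For KLF4 they were ATP6V1F and BCR, each at 0.035. ELF3 was nearest to RMND1 (0.0081) and IFI30 (0.011), and ELF1 to PSMC1 (0.0052) and XPR1 (0.0088). KLF3 was nearest to PRPF18 (0.0066) and MORF4L2 (0.011), KLF5 to TCEB3 (0.023) and RBMS2 (0.025), and KLF6 to CINP (0.012) and SNAP29 (0.017). With 4 libraries and so many genes, near neighbours of any pattern are found, and the distances are a description.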

How the data were processed

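RNA-seq and ChIP-seq of ESO26 cells were described with Bowtie, Bowtie2, Trim Galore, Picard, MACS2 and the build hg19, without roles, per the submitters' processing notes. Total RNA was column-purified, per the labels' protocols. The gene table holds normalized counts, a signal that the authors deposited after a normalization given in none of the sources used here. The values are fractional. Of the values above 0 and below 20, between 22.2% and 49% per library lay on a whole multiple of a step, to within 2% of it, with the most frequent value divided by 2 as the step. A count model was therefore not used. The normalized counts of control 1 summed to 18198888 and those of control 2 to 18613685. The sum for siHNF4A 1 was 17912507, and that for siHNF4A 2 was 17913755. The absolute depth, and hence the counting error, is unknown. The step described above was 0.611 and 0.555 in control 1 and 2, and 0.450 and 0.506 in siHNF4A 1 and 2. Whether depth differed between the groups was not tested. The peak lists were not used.

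Libraries were grouped by title. Genes with a mean of at least 10 over the 4 libraries (15577) were fitted with limma 3.58.1 (lmFit, eBayes with trend) in R 4.3.3 on log2(normalized count + 1), without a block. Called genes had an adjusted p under 0.05 (Benjamini-Hochberg, over all genes tested). Other pseudocounts, filters and scalings, a fit without the trend, a replicate block and each library left out were tried. The 7 genes, the 4 lists and the rules were chosen with earlier results of these data known. Named are the 7 genes, HNF4A, called genes of each list, the 3 highest means of each family and the 2 genes nearest in pattern to each factor. List genes named without a call, marker genes and neighbours were named after their values were seen. Sequence handling used Python 3.11.15, and promoters come from RefSeq on GRCh38.p14.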

Additional observations from a re-analysis of the deposited data

How the results depend on the processing

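Among the 7 genes, 56 values came from alternatives that kept all 4 libraries, and 52 of them kept their direction and side of the threshold. With no minimum mean, 30247 genes rather than 15577 were tested and 726 rather than 2202 were called. In that setting 1 of the 7 genes was called, with 2 of the ETS genes, 0 of the KLF and SP genes (9 at an unadjusted p under 0.05 in limma), 5 of the target genes and 1 of the cofactors, and KLF4 was no longer called at 0.33. Without the variance trend, limma called 0 genes in the table, the 7 genes and each list (3524, 1, 5, 6, 8 and 5 of these had an unadjusted p under 0.05). In that fit HNF4A (-1.97), EHF (0.35) and KLF4 (0.33) were short of the threshold. The sign of ELF1 turned to 0.016 after quantile normalization, 0.0071 without control replicate 2 and 0.0050 without siHNF4A replicate 1, and that of KLF3 to 0.00048 without siHNF4A replicate 1. The causes were not tested.

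With each library left out in turn, the calls in the table ranged from 906 to 2413, those of the 7 genes from 1 to 2, of the ETS genes from 2 to 5, of the KLF and SP genes from 2 to 6, of the target genes from 3 to 7 and of the cofactors from 1 to 4. KLF4 ranged from 0.20 to 0.47, ELF3 from 0.015 to 0.13, KLF5 from 0.026 to 0.20, KLF6 from 0.0025 to 0.14, ELF1 from -0.075 to 0.0071 and KLF3 from -0.11 to 0.00048. These fits have fewer samples, and a lone library is assumed to vary like the other group. The difference in the log2 ratio of EHF to ELF3, siHNF4A minus control, ranged from 0.21 to 0.34. Of 273 values for 23 other named genes, 206 kept their direction and their side of the threshold, 67 kept their direction and were no longer called and 0 changed sign. SP3, which was not called, is among the 23.

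With the replicate number as a block, 2428 genes were called, and EHF (adjusted p of 0.0023 in limma) and KLF4 (0.0157) stayed called among the 7 genes. Across 15577 genes the deviations of same-numbered libraries had a Pearson correlation of -0.019, and across the 10918 with a mean of at least 100 it was 0.056. Neither reaches 0.1, but such a correlation cannot show whether libraries were paired. The samples were treated as unpaired, as had been planned. Peaks near the genes had been planned with 2 other windows and a stricter list, and were not run without an annotation of hg19.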
